A study of Mus musculus with 12 samples.

Results

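Renal cortex of ICR mice at 8 weeks of age was compared with renal cortex of ICR mice at 4 weeks, using 6 of the 12 arrays of a series that also holds ICGN mice. The members are the 3 arrays labelled as 8-week ICR cortex and the 3 labelled as 4-week ICR cortex. ICR is an outbred stock that the labels call normal, and ICGN is an ICR-derived strain that the labels call nephrotic and that is known for a mutation of Tns2. No treatment, transgene or deletion is named for the ICR mice, and neither their sex nor the number of mice behind an array is given, so a p-value here reflects how much these arrays vary, which may be technical. The 6 ICGN arrays, 3 at each age, entered the fit for the estimate of the spread and were used to ask whether an age change differed between the strains.

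In mice the weeks after weaning cover puberty and fast body growth. New nephrons are no longer formed by then, and the kidney grows as tubules lengthen and their cells enlarge, first with and later with little cell division. In the same weeks gonadal hormones and the sex-specific pattern of growth hormone release set the adult male or female level of many transporters and cytochrome P450 enzymes of the proximal tubule. The comparison therefore asks which transcripts of a normal cortex differ between the juvenile and the young adult age.

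Signal intensity per probe set was brought to a median of 40.4 in every array, because the 4-week and the 8-week arrays had been scaled to different targets. A signal below 40.4 is thus below the array median. Of 12 cortex markers fixed for the check 11 had a named probe set, and all 11 (proximal tubule, thick limb, distal convoluted tubule, collecting duct, podocyte and endothelium) lay above the median in all 6 arrays, the lowest being Nphs1 at 135. The Y-linked genes Uty (223 to 419), Eif2s3y (240.4 to 461) and Kdm5d (158 to 214) were above the median in every ICR array, and Xist lay between 23.4 and 47.0. Log2 values correlated across genes at 0.978 to 0.984 among the 4-week arrays, 0.978 to 0.981 among the 8-week arrays and 0.944 to 0.950 between the ages. The control probe set for 18S rRNA gave 397 ± 17.5 at 4 weeks and 207 ± 65.7 at 8 weeks (two-sided p = 0.1 by exact permutation, which 6 arrays split evenly cannot go below). Between its 3' and 5' ends the Actb control gave a ratio of 1.39 ± 0.0507 at 4 weeks and 1.94 ± 0.210 at 8 weeks (exact p = 0.1), while that of Gapdh was 0.807 ± 0.0132 and 0.800 ± 0.0148 (exact p = 0.6). Age, the scaling target and any batch of array processing coincide and cannot be told apart.

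Of 12385 genes tested, 2228 (18%) were called higher at 8 weeks and 1328 (10.7%) lower, at a limma adjusted p of 0.05 or less (Benjamini-Hochberg over all genes). A log2 fold change is printed after subtraction of that of the median gene, followed by its standard error, and a signal is given array by array or as the mean ± SD of 3 arrays. The balance of the calls moved with the scaling of the arrays. Calls were 62.7% higher with a common median, 58.5% when centred on the tested probe sets (2417 higher and 1716 lower), 45.2% after quantile normalization (1719 and 2087) and 37.8% with a common trimmed mean (1543 and 2534). The median gene stood at 0.0866, 0.0509, -0.00902 and -0.0705 under these scalings before any subtraction. Under all 4 scalings 1417 genes (11.4%) were called higher and 1314 (10.6%) lower, and list counts below name these where they differ. The shares of all genes, 18% called higher and 10.7% lower, are the background of every list count below. Calls with a log2 size of at least 1 were 249 higher and 452 lower. Without 8-week array 3 the higher calls numbered 1445.

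**Figure D1:**
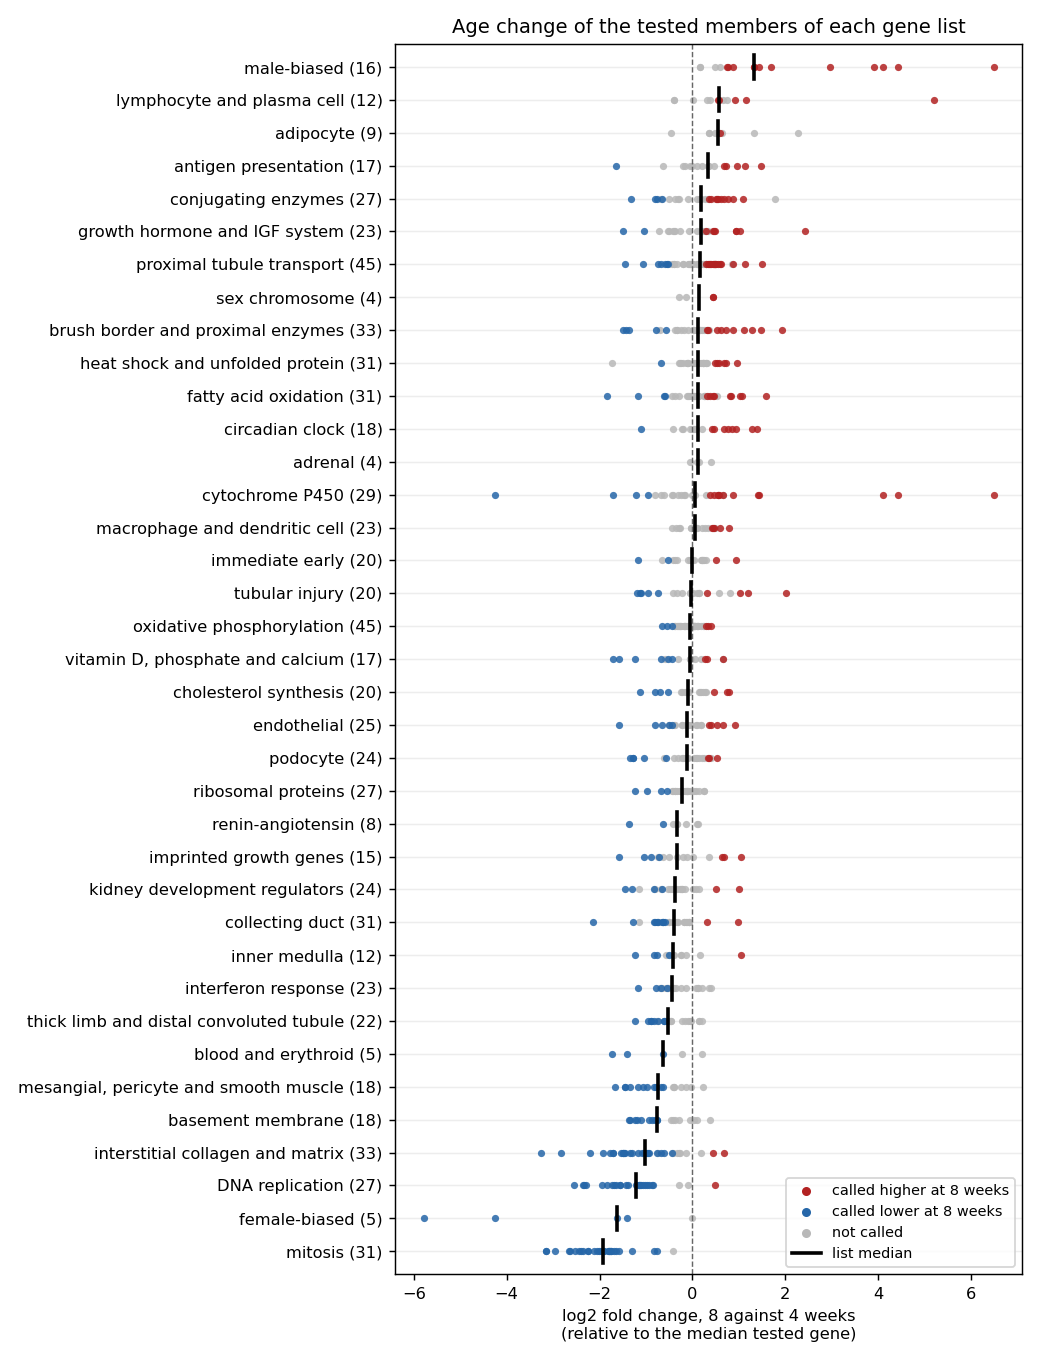
Each point is 1 tested gene of a list (number tested in brackets), placed on the horizontal axis by its log2 fold change from 4 to 8 weeks in ICR cortex relative to the median tested gene; red and blue points were called higher and lower, grey points were not called, and the black bar is the list median. The male-biased list lies farthest to the right (median 1.32), and mitosis (-1.93), female-biased (-1.62) and DNA replication (-1.22) genes lie farthest to the left.

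Transcripts of dividing cells were lower at 8 weeks. Of 31 mitosis genes tested 30 fell and 0 rose, under all 4 scalings, with a median log2 fold change of -1.93, against 10.7% of all genes called lower. The remaining gene, Kif2c, stood at -0.41 and did not pass. The arrays of the 2 ages did not overlap for 29 of the 31 genes, against 15.9% of all genes apart in that direction (26.1% in the other and 42% in either). With any 1 array left out 28 to 30 fell.

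Promoters of 4 of these genes are shown because the list moved together and promoters of mitosis genes are known for a few short elements. The windows run from 250 bases before to 50 bases after the RefSeq gene start (build GRCm38.p6), read 5′ to 3′ on the gene's strand. Capitals mark TTTGAA, the letters of the cell cycle homology region, or its reverse complement TTCAAA, and CCAAT, the letters of the NF-Y element, or its reverse complement ATTGG.
Mki67, chr7:135716330-135716629, minus strand: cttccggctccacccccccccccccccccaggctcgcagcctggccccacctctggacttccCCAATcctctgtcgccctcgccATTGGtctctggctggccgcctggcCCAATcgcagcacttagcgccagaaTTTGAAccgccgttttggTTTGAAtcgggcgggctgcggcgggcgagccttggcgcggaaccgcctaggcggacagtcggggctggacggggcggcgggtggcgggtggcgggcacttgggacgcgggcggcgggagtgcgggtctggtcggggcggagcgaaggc
Ccnb2, chr9:70421505-70421804, minus strand: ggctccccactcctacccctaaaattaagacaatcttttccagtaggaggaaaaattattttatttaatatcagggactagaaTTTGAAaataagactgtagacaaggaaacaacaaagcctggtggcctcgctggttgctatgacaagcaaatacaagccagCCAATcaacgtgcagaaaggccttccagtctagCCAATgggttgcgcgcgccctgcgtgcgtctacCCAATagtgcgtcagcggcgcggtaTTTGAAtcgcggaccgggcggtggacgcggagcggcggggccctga
Ube2c, chr2:164769679-164769978, plus strand: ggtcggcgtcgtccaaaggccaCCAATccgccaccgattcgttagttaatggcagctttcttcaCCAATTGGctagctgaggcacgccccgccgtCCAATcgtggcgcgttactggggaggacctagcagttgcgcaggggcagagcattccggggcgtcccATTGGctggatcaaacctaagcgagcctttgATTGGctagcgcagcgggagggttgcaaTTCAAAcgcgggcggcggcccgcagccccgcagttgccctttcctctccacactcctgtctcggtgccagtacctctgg
Anln, chr9:22389157-22389456, minus strand: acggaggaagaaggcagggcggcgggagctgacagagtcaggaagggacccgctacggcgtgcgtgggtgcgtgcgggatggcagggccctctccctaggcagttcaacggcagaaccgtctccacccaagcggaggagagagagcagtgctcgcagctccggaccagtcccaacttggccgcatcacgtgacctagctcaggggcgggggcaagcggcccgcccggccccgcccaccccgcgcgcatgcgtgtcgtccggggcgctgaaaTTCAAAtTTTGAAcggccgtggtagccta
The Mki67 window holds 2 matches to TTTGAA and 3 to CCAAT, that of Ccnb2 also 2 and 3, that of Ube2c 1 and 6 (a pair of which overlap on opposite strands) and that of Anln 2 and 0. TTTGAA on either strand occurred in the windows of 20 of 26 called mitosis genes with a window (76.9%), against 5466 of 27025 genes (20.2%) in the RefSeq table. CCAAT occurred in 22 of 26 (84.6%), against 11096 of 27025 (41.1%). The search used both strands, and a match describes letters in a window and not a bound site.

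Mki67, which encodes the proliferation antigen Ki-67, gave signals of 630.3, 545 and 638 at 4 weeks and 61.7, 49.1 and 79.1 at 8 weeks (log2 fold change -3.15 ± 0.15, adjusted p = 6.8e-09). Ube2c, the ubiquitin-conjugating enzyme that works with the anaphase-promoting complex, gave 638, 388 and 502 at 4 weeks and 38.1, 39.2 and 78.9 at 8 weeks (-3.16 ± 0.25, adjusted p = 7.4e-07). Ccnb2, encoding cyclin B2, gave 571, 385 and 544 at 4 weeks and 64.7, 49.9 and 58.9 at 8 weeks (-2.96 ± 0.17, adjusted p = 1.1e-07). In each of these genes every 8-week array was below every 4-week array, which the rule that named them among the lowest genes required. The margin was wide, and 8-week signals stayed near the array median. The cytokinetic scaffold gene Anln fell from 234 ± 21.8 at 4 weeks to 30.7 ± 11.5 at 8 weeks (-2.67 ± 0.19). The mitotic kinase genes Cdk1 (-2.63), Plk1 (-2.52) and Aurkb (-2.39) and the topoisomerase gene Top2a (-2.25) fell too. Outside the list, the largest falls of dividing-cell genes were those of Pclaf, a partner of the replication clamp PCNA (-2.92 ± 0.21), Kif23, a kinesin of the midbody (-2.79 ± 0.23), Sgo1, which protects centromeric cohesion (-2.78 ± 0.28), and Nuf2, a kinetochore subunit (-2.70 ± 0.25). Sgo1 lay between 86.4 and 97.5 in the 4-week arrays and between 4.40 and 5.91 in the 8-week arrays. Among the 4-week arrays, array 2 was nearest to the 8-week mean for 26 of the 30 called mitosis genes and array 1 for 0.

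DNA replication genes followed the same direction. Of 27 tested 24 fell and 1 rose, with a median of -1.22. The count of 24 was the same under all 4 scalings, whereas the rise of Mcm10 (0.50) was lost with a common trimmed mean. Rrm2, the regulated subunit of ribonucleotide reductase, gave 486, 518 and 611 at 4 weeks and 83.5, 78.1 and 105 at 8 weeks (-2.55 ± 0.17, adjusted p = 2.1e-07). Gins2, a subunit of the replicative helicase, fell (-2.35), and Mcm5, another helicase subunit (-2.34), and Uhrf1, which recruits the maintenance DNA methyltransferase (-2.29), fell too. The clamp gene Pcna, bright at both ages, fell from 3474 ± 215 at 4 weeks to 1694 ± 213 at 8 weeks (-1.12). Mcm2 (-0.28) and Ccne1 (-0.10) did not pass.

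**Figure D2:**
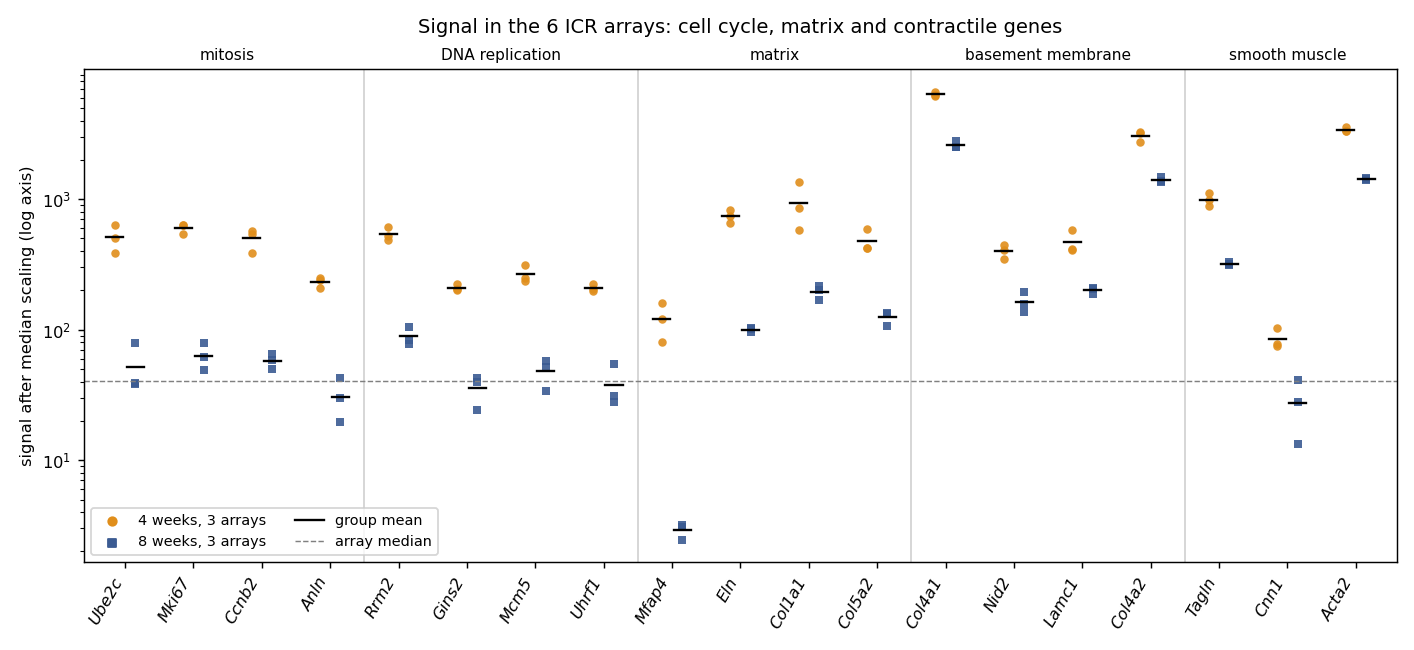
Signals of 19 genes in the 6 ICR arrays on a logarithmic vertical axis, 4-week arrays as circles and 8-week arrays as squares, with group means as black bars and the common array median as a dashed line. In each gene shown the 3 squares lie below the 3 circles, and the 8-week signals of the mitosis and replication genes lie near the array median, while the 8-week means of Col4a1 (2606) and Acta2 (1430.4) stay far above it.

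Growth regulators moved in both directions. In the growth hormone and insulin-like growth factor (IGF) system, where circulating growth hormone drives IGF-1 production and binding proteins hold the ligand, 8 of 23 genes rose and 2 fell (5 and 2 under all 4 scalings, and 5 to 8 rose when an array was left out, the fewest without 4-week array 1). The ligand gene Igf1 fell, with signals of 712, 865 and 618 at 4 weeks and 250.1, 286 and 267 at 8 weeks (-1.49 ± 0.13, adjusted p = 3.7e-06). Irs2, the docking protein behind the insulin and IGF-1 receptors, rose from 16.9, 3.15 and 30.2 at 4 weeks to 127, 94.3 and 201 at 8 weeks (2.43 ± 0.33, adjusted p = 6.7e-05). All 3 of its 4-week arrays were below the array median and all 3 of its 8-week arrays above it. Igfbp3, the main carrier of circulating IGF-1, rose from 1517 ± 253 at 4 weeks to 3267 ± 148 at 8 weeks (1.03), the growth hormone receptor gene Ghr by 0.46 and the protease gene Htra1 by 0.94, while Stc1, encoding the secreted glycoprotein stanniocalcin 1, fell (-1.04).

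Of 15 imprinted growth genes tested 4 fell and 3 rose, and these 7 were called under all 4 scalings (5 fell with a common trimmed mean or after quantile normalization). In percent, 26.7% fell and 20% rose, against 10.7% and 18% of all genes. Mest gave 408, 349.5 and 384 at 4 weeks and 109, 124 and 152 at 8 weeks (-1.59 ± 0.13), Cdkn1c, an inhibitor of cyclin-dependent kinases, fell from 555 ± 9.24 at 4 weeks to 280.0 ± 27.1 at 8 weeks (-1.05), and Plagl1 (-0.90) and Peg3 (-0.72) fell as well. Another probe set of Plagl1, which represents the gene when no filter is applied, was called higher there (0.88). The risers were Igf2r, the receptor that clears IGF2 (1.03 ± 0.16), Dcn, encoding the small proteoglycan decorin (0.69), and Impact (0.63). Igf2 itself stood at -0.74 and did not pass. Among 24 regulators of kidney development 4 fell and 2 rose (4 and 1 under all 4 scalings). These shares, 16.7% lower and 8.33% higher, were near the 10.7% and 18% of all genes. The fallers were 2 without 4-week array 1 or 8-week array 3, and 8 fell with a common trimmed mean. Osr2 gave 148, 149 and 200.0 at 4 weeks and 58.2, 80.6 and 38.7 at 8 weeks (-1.45 ± 0.23), Sox4 fell by 0.83 and Irx3 rose by 1.01. The RNA-binding protein gene Igf2bp1 (-1.31) lost its call without 4-week array 1, without 8-week array 3 and in the 6 ICR arrays alone. The nephron progenitor gene Six2 (-0.82) and the stromal progenitor gene Foxd1 (-0.68) did not pass.

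Extracellular matrix genes were lower at 8 weeks. Of 33 interstitial collagen and matrix genes 24 fell and 2 rose (1 under all 4 scalings), with a median of -1.03. When 1 array was left out 21 to 24 fell. Mfap4, a microfibril-associated glycoprotein, gave 119.9, 159 and 80.1 at 4 weeks and 2.45, 3.11 and 3.21 at 8 weeks (-3.27 ± 0.36, adjusted p = 1.8e-05), so that its 8-week signals were far below the array median and the offset on the log scale understates the change. The elastin gene Eln gave 655, 829 and 743 at 4 weeks and 101, 104 and 95.5 at 8 weeks (-2.84 ± 0.13, adjusted p = 6.8e-09). Col1a1, a chain of type I collagen, gave 581, 1344 and 862 at 4 weeks and 215, 201 and 169.6 at 8 weeks (-2.20 ± 0.22). The 4-week arrays of Col1a1 spread widely, yet the lowest of them lay above all 8-week arrays. Col5a2 (-1.93), Col3a1 (-1.71), the fibronectin gene Fn1 (-1.48), Col6a1 (-1.71) and the collagen chaperone gene Serpinh1 (-1.49) fell too. The risers were decorin, named above, and the collagen hydroxylase subunit P4ha2 (0.44), whose call was not kept under all 4 scalings.

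Basement membrane genes fell in 10 of 18 cases (9 under all 4 scalings) and rose in 0, with a median of -0.76. Col4a1 and Col4a2, the chains of the widely expressed type IV collagen, gave 6189.7, 6258 and 6661 at 4 weeks and 2528, 2510.2 and 2781 at 8 weeks (-1.37 ± 0.11) and 2718, 3200.3 and 3248 at 4 weeks and 1356, 1469 and 1379 at 8 weeks (-1.20 ± 0.11). Both stayed among the bright genes of the cortex at 8 weeks. Nid2, encoding nidogen 2, fell (-1.34 ± 0.15), as did the laminin chain gene Lamc1 (-1.24 ± 0.13), although the dimmer probe set of Lamc1 did not pass (-0.43). Of the chains of the mature glomerular basement membrane, Col4a5 fell (-0.95), whereas Col4a3 (0.39), Col4a4 (-0.45), Lamb2 (-0.37) and Lama5 (-0.28) did not pass.

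Contractile and mural cell genes fell in 11 of 18 cases under all 4 scalings, with a median of -0.73 and 0 risers. Tagln, encoding the actin-binding protein transgelin, gave 1111, 884 and 980.2 at 4 weeks and 320.3, 314 and 328 at 8 weeks (-1.68 ± 0.12, adjusted p = 7.0e-07). The smooth muscle actin gene Acta2 gave 3353, 3566 and 3326 at 4 weeks and 1421, 1462 and 1408 at 8 weeks (-1.34 ± 0.11, adjusted p = 1.5e-06). In both genes the 8-week arrays lay close together and far below the 4-week arrays. Postn, encoding periostin and counted in this list and in the matrix list (-1.44 ± 0.27), the calponin gene Cnn1 (-1.46 ± 0.32) and the pericyte receptor gene Pdgfrb (-0.82) fell, while Myh11 (-0.40), Rgs5 (-0.41) and Des (0.22) did not pass. In whole cortex, fewer cells of a type and less RNA per cell cannot be told apart.

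Genes of the male-biased list, which male kidney expresses above female kidney, rose. Of 16 tested 12 rose and 0 fell, under all 4 scalings, with a median of 1.32, against 18% of all genes called higher. Without 1 array 11 to 14 rose. Cyp4a12a, a fatty acid omega-hydroxylase, gave 132, 17.9 and 42.5 at 4 weeks and 4148, 6693 and 6897 at 8 weeks, a 90.0-fold rise on the log scale used (6.49 ± 0.44, adjusted p = 2.0e-07). Cyp7b1, an oxysterol hydroxylase, gave 229.6, 97.0 and 65.4 at 4 weeks and 2089.9, 3672 and 3025 at 8 weeks (4.42 ± 0.54, adjusted p = 3.0e-05). Cyp2d9, a steroid hydroxylase, gave 43.8, 55.5 and 86.8 at 4 weeks and 799.6, 1925 and 1393 at 8 weeks (4.11 ± 0.28, adjusted p = 2.0e-07). All 8-week arrays of these 3 enzymes were above all 4-week arrays, which the rule that named them among the highest genes required. Array 1 was the lowest of the 8-week arrays in each.

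The organic anion transporter gene Slco1a1 gave 1427, 197 and 276 at 4 weeks and 6407, 6829 and 7811 at 8 weeks (3.90 ± 0.63, adjusted p = 3.0e-04). Here 4-week array 1 was far above the other 4-week arrays and still below every 8-week array, the latter required by the same rule. The ferritin receptor gene Timd2 rose by 2.96 ± 0.29, though the dimmer of its probe sets did not pass (0.90). The beta-glucuronidase gene Gusb (1.68), Cyp2j13 (1.44), Cyp2e1 (0.88) and Odc1, the rate-limiting enzyme of polyamine synthesis (0.75), rose as well. Kap, the androgen-regulated protein of the proximal tubule, was among the brightest genes at both ages, at 19766 ± 1358 at 4 weeks and 23425 ± 3098 at 8 weeks, and did not pass (0.15), like Acsm2 (0.17), Slc22a30 (0.59) and Slc7a13 (0.48, adjusted p = 0.0501).

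Arrays of one age differed among themselves in this list. Of the 3 4-week arrays, array 1 was the nearest to the 8-week mean for 11 of the 12 called male-biased genes (91.7%), against 1150 of all 3556 called genes (32.3%). Of the 3 8-week arrays, array 1 was also the nearest to the 4-week mean for 11 of the 12, against 1360 of the 3556. The labels give no pairing of same-numbered arrays across ages. Of 5 female-biased genes 4 fell and 0 rose, under all 4 scalings. Slc7a12, an amino acid transporter, gave 2029, 2983 and 2660.4 at 4 weeks and 47.1, 48.7 and 22.2 at 8 weeks (-5.79 ± 0.36, adjusted p = 1.8e-07), a 55.3-fold fall. Cyp4a14, an omega-hydroxylase like Cyp4a12a, gave 776, 1035 and 1586 at 4 weeks and 37.0, 62.9 and 53.2 at 8 weeks (-4.25 ± 0.43, adjusted p = 7.2e-06). These 2 transcripts went from among the brighter ones to near the array median. The efflux pump gene Abcc3 (-1.62) and the organic anion transporter gene Slc22a19 (-1.40) fell less, and Rnf24 (-0.02) did not pass. Of the 2 Y-linked genes called higher, Eif2s3y (0.43) lost its call under another scaling and Uty (0.44) had 2 probe sets called higher and 1 called lower.

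**Figure D3:**
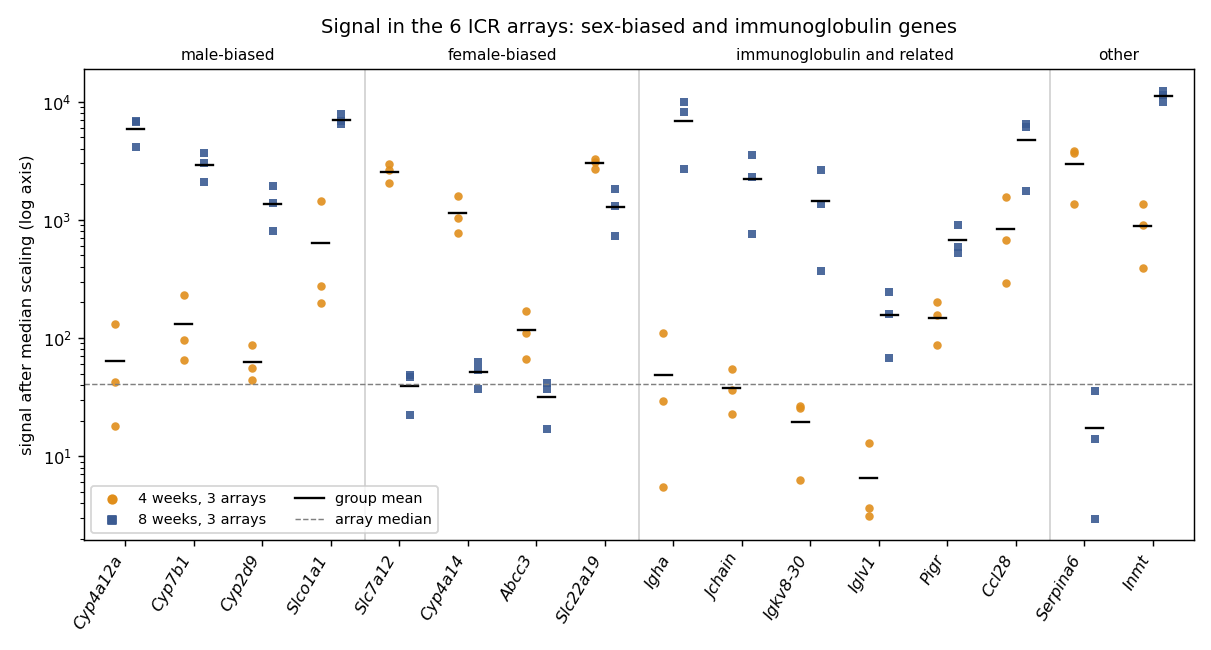
Signals of 16 genes in the 6 ICR arrays on a logarithmic vertical axis, 4-week arrays as circles and 8-week arrays as squares, with group means as black bars and the common array median as a dashed line. The groups lie apart in each gene shown, which the naming rule required of those among the 15 highest and 15 lowest genes. The 8-week signals spread widely for Serpina6 (14.0, 35.3 and 2.95) and for the immunoglobulin genes, with Igha at 2665 in array 1 and at 9940 and 8116 in the others.

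The gene that rose most in the whole table was Igha, the constant region of the immunoglobulin A (IgA) heavy chain. It gave 29.4, 111 and 5.46 at 4 weeks and 2665, 9939.6 and 8116 at 8 weeks (7.03 ± 0.60, adjusted p = 1.2e-06). Jchain, which joins IgA monomers into the form that epithelia export, gave 22.8, 54.2 and 36.1 at 4 weeks and 762, 3532 and 2292 at 8 weeks (5.21 ± 0.39, adjusted p = 3.8e-07). The light chain variable genes Igkv8-30 and Iglv1 gave 26.6, 25.6 and 6.24 at 4 weeks and 372, 2630.3 and 1359.8 at 8 weeks (5.19 ± 0.52) and 3.12, 13.0 and 3.64 at 4 weeks and 67.5, 244 and 161 at 8 weeks (3.05 ± 0.60). In all 4 genes the 8-week array 1 was the lowest of its group, and array 2 the highest. V gene probe sets can detect related family members, so single V genes are uncertain. Pigr, the receptor that carries IgA across epithelium, gave 157, 87.1 and 199.8 at 4 weeks and 523, 907 and 594 at 8 weeks (2.05 ± 0.27, adjusted p = 4.3e-05), and Ccl28, a chemokine of epithelia that attracts IgA-secreting plasma cells, gave 1558, 671 and 292 at 4 weeks and 1749, 6109.7 and 6404 at 8 weeks (2.49 ± 0.59, adjusted p = 0.00448). Pigr and Ccl28 were picked after their values were seen.

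In the lymphocyte and plasma cell list 5 of 12 tested genes rose (4 under all 4 scalings) and 0 fell, and the summed signal of the tested genes was 4108 to 4760 at 4 weeks and 7336 to 10102 at 8 weeks. Beside Jchain the risers were Mzb1, a chaperone of plasma cells (1.16), Cd52 (0.92), Xbp1, a regulator of secretory cells that tubules also express (0.58), and Ighm, the IgM heavy chain (0.55, lost under another scaling). Xbp1 was called by 2 of its 4 probe sets, and the dimmest stood at -0.01. The plasma cell marker Sdc1 (-0.40), which epithelia express too, did not pass. The B cell genes Cd79a, Cd79b and Ms4a1 and the T cell genes Cd3d and Cd4 stayed below the array median in all 6 arrays. Their highest value was 33.5, for Ms4a1, and they were not tested. Igk, Pou2af1 and Gzma, also not tested, had a highest ICR array above the median, at 68.4, 45.5 and 42.3. Their means were 20.5, 7.91 and 12.2 at 4 weeks and 52.6, 26.8 and 23.2 at 8 weeks, whereas Cd79a and Cd79b were lower at 8 weeks. The part of B and T cells in the immunoglobulin result was not tested.

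Calls in the other immune lists differed by list. Of 23 macrophage and dendritic cell genes 5 rose (21.7%, against 18% of all genes) and 0 fell. Under all 4 scalings 2 rose, Mpeg1 at 0.79 and Itgax at 0.60 (8.7%, against 11.4%). The list had a median of 0.05 and a summed signal of 3450 to 4925 at 4 weeks and 4757 to 6679 at 8 weeks. Risers numbered 2 to 6 when 1 array was left out, the fewest without 4-week array 3 or 8-week array 3. The defining genes Adgre1 (0.03), Cd68 (0.04) and C1qa (-0.28) did not pass. In antigen presentation 5 of 17 rose (29.4%, against 18% of all genes) and 1 fell (5.88%, against 10.7%). Under all 4 scalings these were 3 and 1, and the risers were 3 without 4-week array 2 or 8-week array 3. The class II genes H2-Aa (524, 223 and 289.9 at 4 weeks and 687, 1037 and 1341 at 8 weeks; 1.48 ± 0.29) and H2-Eb1 (1.12) rose. H2-DMb2, a class II editing subunit, fell (-1.65 ± 0.34), called by 2 of its 3 probe sets and not by the dimmest (-1.16). The class I gene H2-K1 rose (0.96), called by 2 of its 4 probe sets and not by the dimmest (0.13). In the interferon response list 4 of 23 fell (17.4%, against 10.7% of all genes) and 0 rose, with a median of -0.45. With a common trimmed mean 11 fell. Leaving out 1 array gave 1 to 7 fallers. These were 1 without 8-week array 2, 2 without 4-week array 1 or 2 or 8-week array 1, and 7 without 8-week array 3. The regulator Irf7 was the most changed (197, 109 and 105 at 4 weeks and 59.3, 43.5 and 67.7 at 8 weeks; -1.17 ± 0.24).

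Proximal tubule genes went both ways. Of 45 transport genes 16 rose and 7 fell (12 and 7 under all 4 scalings), with a median of 0.17. In percent, 35.6% rose and 15.6% fell, against 18% and 10.7% of all genes. Leaving out 8-week array 3 lowered the risers to 10, and leaving out 4-week array 2 or 3 or 8-week array 1 lowered the fallers to 4. With the dimmest probe set of each gene 7 rose. Slc22a4, a transporter of ergothioneine and carnitine, gave 136, 122 and 159 at 4 weeks and 448, 458 and 413 at 8 weeks (1.50 ± 0.14, adjusted p = 1.9e-06). The sulfate exchanger gene Slc26a1 gave 232, 263 and 441 at 4 weeks and 550.1, 967 and 674 at 8 weeks (1.13 ± 0.23). Slc9a3, the sodium-proton exchanger NHE3 of the brush border, rose from 769 ± 61.3 at 4 weeks to 1536 ± 317 at 8 weeks (0.88). Slc6a13, a basolateral transporter of GABA, gave 968, 833 and 929.9 at 4 weeks and 274, 338 and 449.5 at 8 weeks (-1.45 ± 0.16, adjusted p = 2.2e-05), and the organic anion transporter gene Slc22a13 fell as well (-1.06 ± 0.23). The markers that define the segment did not pass, with Slc34a1 at -0.05, Lrp2 at -0.33, Cubn at 0.01 and Slc5a2 at -0.01.

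Of 33 brush border and proximal enzyme genes 10 rose and 5 fell (9 and 5 under all 4 scalings), and without 8-week array 3 the risers were 6. In percent, 30.3% rose and 15.2% fell, against 18% and 10.7% of all genes. The fallers were peptidases of the brush border and 1 enzyme of tryptophan breakdown. Anpep, encoding aminopeptidase N, gave 855, 746 and 816 at 4 weeks and 244, 307 and 342 at 8 weeks (-1.50 ± 0.13, adjusted p = 2.7e-06). Mme, encoding neprilysin, gave 1605, 1592 and 1703 at 4 weeks and 721, 694 and 579.8 at 8 weeks (-1.37 ± 0.15, adjusted p = 2.0e-05). Dpp4 (-0.78), Mep1b (-0.57) and the kynureninase gene Kynu (-1.44) fell, while the peptidase genes Dpep1 (0.01), Mep1a (0.12), Ace (-0.34) and Enpep (-0.33) did not pass. Among the risers Cndp1, a dipeptidase that splits carnosine, gave 509, 1052 and 1446 at 4 weeks and 4499, 3158 and 3773 at 8 weeks (1.94 ± 0.28), and Hpd, an enzyme of tyrosine breakdown, gave 525, 771 and 907 at 4 weeks and 2482, 2102 and 1848 at 8 weeks (1.47 ± 0.27). The kynurenine hydroxylase gene Kmo (1.29), which precedes Kynu in the pathway, and G6pc, which releases glucose (1.11), rose too.

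Enzymes of xenobiotic and lipid metabolism went both ways too. Of 29 cytochrome P450 genes 12 rose and 4 fell (11 and 4 under all 4 scalings). Beside the sex-biased members named above, Cyp27a1, a mitochondrial sterol hydroxylase, rose from 224 ± 31.3 at 4 weeks to 662 ± 144 at 8 weeks (1.42). Cyp27b1, which makes the active form of vitamin D, fell with signals of 430.0, 175 and 310.1 at 4 weeks and 107, 112 and 49.9 at 8 weeks (-1.72 ± 0.29, adjusted p = 8.0e-04). Of 27 conjugating enzymes 10 rose and 4 fell (7 and 4 under all 4 scalings), and without 4-week array 2 or 8-week array 3 the risers were 6. Ugt3a1 gave 1704, 1786 and 1557 at 4 weeks and 3319.6, 4126 and 4105 at 8 weeks (1.10 ± 0.15) and Ugt8a rose as well (0.87), whereas the glutathione transferase genes Gsta2 (-1.32) and Gstm2 (-0.81) fell.

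In fatty acid oxidation 9 of 31 genes rose (29%, against 18% of all genes) and 4 fell (12.9%, against 10.7%). Under all 4 scalings these were 8 and 4. Ppara, the nuclear receptor that drives many of these genes, rose (0.81). Acot12, an acetyl-CoA thioesterase, gave 1035, 718 and 757 at 4 weeks and 2055, 3291 and 2766 at 8 weeks (1.59 ± 0.22), and Acads, the short-chain acyl-CoA dehydrogenase, rose from 757 ± 79.5 at 4 weeks to 1707 ± 315 at 8 weeks (1.06). The thioesterase gene Acot1 fell with signals of 1652, 766 and 1084 at 4 weeks and 415, 239 and 333 at 8 weeks (-1.84 ± 0.26), and its relatives Acot3 (-1.18) and Acot4 (-0.62) fell too. Thus 3 of the 4 fallers were acyl-CoA thioesterases of one gene family, which lies in a cluster of near-identical copies, so their probe sets may share signal. The core enzymes Acadm (0.04), Acadl (-0.03), Hadha (-0.08) and Cpt2 (0.13) did not pass.

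Respiratory chain genes gave 3 risers and 3 fallers of 45, with a median of -0.05. These were 6.67% each, against 18% and 10.7% of all genes. The risers were 1 without 4-week array 2 or 8-week array 3, and the fallers were 1 without 4-week array 1 or 8-week array 2 and 5 without 8-week array 3. By scaling 15 fell with a common trimmed mean and 19 after quantile normalization, so no direction of the list was stable over the scalings. The fallers under all 4 scalings were the complex I genes Ndufb10 (-0.66) and Ndufa5 (-0.55) and the complex II gene Sdhc (-0.44), and the risers were Uqcrc2 (0.41), Ndufv1 (0.34) and Uqcrc1 (0.29). The call of Ndufa5 was lost without 4-week array 1 or 8-week array 2. That of Sdhc was lost without any one of 5 arrays, with no filter and without a variance trend. In cholesterol synthesis 3 of 20 genes rose (1 under all 4 scalings) and 4 fell. These shares, 15% higher and 20% lower, were near the 18% and 10.7% of all genes. Without 8-week array 2 the risers were 1 and the fallers 2 (the fallers were 2 also without 8-week array 3). Fdps, which makes farnesyl diphosphate, gave 263, 292 and 349.6 at 4 weeks and 146, 131 and 141 at 8 weeks (-1.14 ± 0.14), and Insig1, the brake on sterol sensing, rose (0.75).

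Genes of the thick limb and distal convoluted tubule were lower or did not pass. Of 22 tested 8 fell and 0 rose, with a median of -0.53, and 14 fell with a common trimmed mean or after quantile normalization. Calb1, the calcium-binding calbindin of the distal convoluted tubule, gave 8238, 7354 and 9611 at 4 weeks and 3295, 3803 and 4193 at 8 weeks (-1.24 ± 0.22, adjusted p = 0.00105). Bsnd, the chloride channel subunit barttin, gave 211, 182 and 243 at 4 weeks and 96.0, 141 and 96.4 at 8 weeks (-0.97 ± 0.16), and Cldn16, a claudin of magnesium and calcium uptake, fell by 0.88. The magnesium channel gene Trpm6 fell (-0.90), although its dimmer probe set pointed up (0.25), as did the thiazide-sensitive cotransporter gene Slc12a3 (-0.74). Umod (-0.16) and Slc12a1 (-0.59), the defining genes of the thick limb, did not pass.

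Among 31 collecting duct genes 10 fell and 2 rose (10 and 1 under all 4 scalings, and 16 fell with a common trimmed mean). Atp12a, a proton-potassium pump, gave 89.1, 137 and 149 at 4 weeks and 14.2, 35.9 and 16.6 at 8 weeks (-2.15 ± 0.28, adjusted p = 1.0e-04). Sgk1, a kinase of aldosterone signalling, gave 3786, 4521 and 5102 at 4 weeks and 3163, 1385 and 1679 at 8 weeks (-1.27 ± 0.27). Subunits of the epithelial sodium channel pointed down, with Scnn1b (-0.63) and Scnn1g (-0.60) called lower and Scnn1a (-0.42) short of the threshold. The water channel gene Aqp2 fell (-0.82), a call lost without 4-week array 1, 4-week array 2 or 8-week array 3. That call was also lost with no offset, with no filter, without a variance trend, in the 6 ICR arrays alone and with the dimmest probe sets. The basolateral channel gene Aqp3 rose with signals of 403, 618 and 641 at 4 weeks and 1079.9, 1336 and 1032 at 8 weeks (0.97 ± 0.17).

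Of 17 genes of vitamin D, phosphate and calcium handling 6 fell and 3 rose (6 and 1 under all 4 scalings), and without 4-week array 3 these were 3 and 1 (without 8-week array 3 the risers were 1 as well). S100g, the small calbindin that vitamin D induces, gave 10618, 7345 and 9281 at 4 weeks and 4532, 2136 and 3245 at 8 weeks (-1.59 ± 0.25, adjusted p = 4.4e-04). It fell together with Cyp27b1 and Calb1, while the vitamin D receptor gene Vdr rose from 968 ± 123 at 4 weeks to 1632 ± 161 at 8 weeks (0.66). The phosphate cotransporter gene Slc34a3 fell (-0.69), a call lost without 4-week array 2, 4-week array 3 or 8-week array 1. Klotho, gene Kl (0.17), and Slc34a1, named above, did not pass. In the renin-angiotensin list 2 of 8 genes fell, Mme and the kallikrein gene Klk1 (-0.64). Klk1 had 1 probe set called higher and 2 called lower, and its call was lost without 4-week array 3 or 8-week array 2. After quantile normalization 5 of the 8 fell.

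Of 24 podocyte genes 5 fell and 3 rose (5 and 1 under all 4 scalings), and 0 rose without 4-week array 1 or 8-week array 1. In percent, 20.8% fell and 12.5% rose, against 10.7% and 18% of all genes. Tcf21, a transcription factor of podocytes and stroma, gave 1303, 1159 and 1359 at 4 weeks and 539, 531 and 575 at 8 weeks (-1.28 ± 0.15), although its dimmer probe set did not pass (-0.42), and Npnt, the matrix protein nephronectin, gave 2886, 3212 and 3231 at 4 weeks and 1292, 1366 and 1419 at 8 weeks (-1.27 ± 0.12). The defining genes Nphs1 (-0.14), Wt1 (-0.22), Synpo (-0.21) and Podxl (-0.12) did not pass. Of 25 endothelial genes 5 fell and 5 rose (5 and 4 under all 4 scalings), or 20% each, against 10.7% and 18% of all genes. The fallers were 3 without any one of 5 arrays (4 without 8-week array 2), 2 from the 6 ICR arrays alone and 8 with a common trimmed mean. Aplnr, the apelin receptor, gave 2229, 1759 and 1769 at 4 weeks and 579, 584 and 887 at 8 weeks (-1.58 ± 0.18, adjusted p = 3.0e-05). The vascular endothelial growth factor receptor gene Kdr gave 300.1, 330.2 and 315 at 4 weeks and 592, 667 and 661 at 8 weeks (0.91 ± 0.11, adjusted p = 1.2e-05), and its relative Flt1 rose (0.66), though not by the dimmest of its probe sets (0.18). The endothelial gene Tie1 fell under all 4 scalings (-0.80 ± 0.15), whereas the endothelial genes Pecam1 (-0.40), Cdh5 (0.19) and Emcn (-0.04) did not pass.

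Clock and stress lists were read as well. Of 18 circadian clock genes 8 rose and 1 fell (6 and 1 under all 4 scalings). Dbp, a transcription factor that the clock drives, gave 1158, 1519 and 1926 at 4 weeks and 5071, 2903 and 5065 at 8 weeks (1.39 ± 0.21, adjusted p = 1.4e-04). Rora gave 301, 317 and 383 at 4 weeks and 842, 886 and 890.2 at 8 weeks (1.28 ± 0.13, adjusted p = 5.2e-06), although the dimmest of its probe sets did not pass (0.55), and Ciart, a repressor of the clock, gave 112, 118 and 155 at 4 weeks and 343, 269.7 and 218 at 8 weeks (0.95 ± 0.25). Hlf (0.86) and Tef (0.67), relatives of Dbp, and Usp2 (0.77) rose as well, and Nfil3, a repressor at the same sites as Dbp, fell (-1.10), a call lost without 4-week array 1, 4-week array 3 or 8-week array 1. The core genes Arntl (-0.20), Clock (-0.01), Per1 (-0.22), Per2 (0.19) and Nr1d1 (0.03) did not pass. The labels give no hour of sampling, so the hour and the age cannot be told apart.
The window of Ciart is shown because CACGTG, the E-box letters bound by the clock's activators, stands in it in capitals 3 times (GRCm38.p6).
Ciart, chr3:95882179-95882478, minus strand: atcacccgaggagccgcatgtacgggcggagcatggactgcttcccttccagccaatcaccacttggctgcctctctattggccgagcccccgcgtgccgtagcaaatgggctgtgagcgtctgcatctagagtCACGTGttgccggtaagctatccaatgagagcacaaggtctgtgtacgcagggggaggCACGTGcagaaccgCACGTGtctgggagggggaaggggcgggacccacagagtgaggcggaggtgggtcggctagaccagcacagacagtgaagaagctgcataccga
CACGTG occurred in 2 of 8 called clock genes with a window (25%), against 8.09% of all genes. The D-box letters TTATGTAA and TTACGTAA occurred in 0 of the 8 on either strand, against 1.11% and 0.126% of all genes. For the male-biased list, an exact string of androgen response element letters was searched (AGAACA, 3 free bases, then its reverse complement TGTTCT). It occurred in 0 of 10 called genes with a window. Because it occurred in only 3 of 27025 genes in all, the 0 says nothing about these genes.

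Of 31 heat shock and unfolded protein genes 6 rose (19.4%, against 18% of all genes) and 1 fell (3.23%, against 10.7%). Under all 4 scalings 3 rose (9.68%, against 11.4%) and 1 fell, and 3 rose without 8-week array 3. Pdia4, a disulfide isomerase of the endoplasmic reticulum, gave 160.2, 158 and 171 at 4 weeks and 338, 339 and 365 at 8 weeks (0.96 ± 0.11, adjusted p = 1.2e-05). The related chaperone genes Dnajc3 (0.72) and Dnajb9 (0.68) rose and Hspb1 fell (-0.69), while Hspa5 (0.04) and Hspa1a (-0.20) did not pass. Among 20 immediate early genes 2 rose and 2 fell, or 10% each, near the 18% and 10.7% of all genes. Under all 4 scalings these were 1 and 2, with 0 risers without 8-week array 3 and 1 faller without any one of 5 arrays. Ier3 was the most changed (-1.18 ± 0.22), and Fos (-0.65) and Egr1 (-0.01) were short of the threshold. In the tubular injury list 4 of 20 rose (2 under all 4 scalings, 1 without 4-week array 2 or 8-week array 3, 2 without 4-week array 1 or 8-week array 2) and 5 were called lower. In percent, 20% were called higher and 25% lower, against 18% and 10.7% of all genes. Il34, a ligand of the macrophage growth factor receptor, gave 71.6, 43.8 and 36.2 at 4 weeks and 182, 270.2 and 306 at 8 weeks (2.02 ± 0.22, adjusted p = 9.9e-06). Clu (-1.13), Cdkn1a (-1.10), Vim (-0.97) and Anxa2 (-0.73) fell. Lcn2, at 23.8 ± 10.6 at 4 weeks and 5.71 ± 8.20 at 8 weeks, lay below the array median in all 6 ICR arrays and was tested because of its signal in ICGN. Its lower call (-1.21) was lost at 4 times the offset (-0.52), in the 6 ICR arrays alone, and without 4-week array 2, 8-week array 2 or 8-week array 3. The injury marker Havcr1 was called (1.03), but lost the call under another scaling. Ribosomal protein genes gave 4 fallers of 27 (14.8%, against 10.7% of all genes) and 0 risers, with a median of -0.23. The fallers were 18 with a common trimmed mean, 17 after quantile normalization, and 2 without 4-week array 1 or 8-week array 2.

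Lists of cells and tissues that a cortex slice could carry were read beside these results. Blood and erythroid genes fell in 3 of 5 cases (60%, against 10.7% of all genes). The summed signal of the list was 1696 to 1835 at 4 weeks and 1013 to 1254 at 8 weeks. Alas2, the heme synthesis enzyme of red cell precursors, fell most clearly, from 646, 560.0 and 582 at 4 weeks to 210.4, 154 and 184 at 8 weeks (-1.74 ± 0.19). Hbb-b2 (-1.41) lost its call without any 1 of the 4-week arrays, without 8-week array 2, with no filter and in the 6 ICR arrays alone. Slc4a1 (-0.63) was called by 1 of its 2 probe sets. In the inner medulla list 4 of 12 fell (33.3%, against 10.7% of all genes) and 1 rose (8.33%, against 18%). Its sums were 9345 to 9417 at 4 weeks and 8989 to 9227 at 8 weeks. Without 4-week array 1 a single gene was called lower, and without 4-week array 3 there were 2. Of 9 adipocyte genes 1 rose, Lpl (0.60), a call lost under another scaling. The defining gene Adipoq gave 293, 177 and 18.3 at 4 weeks and 109.9, 523 and 471 at 8 weeks and Car3 gave 2426, 1475 and 148 at 4 weeks and 2367, 5859.9 and 5482 at 8 weeks, and neither passed. The 4-week array 3 was the lowest and the 8-week arrays 2 and 3 the highest in both. The adrenal list held 0 calls of 4, with sums of 140.4 to 209.8 and 174 to 228. The part of these cells in the results above was not tested.

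Of the remaining large changes, Serpina6, the corticosteroid-binding globulin, fell most, with signals of 1370.0, 3671 and 3823 at 4 weeks and 14.0, 35.3 and 2.95 at 8 weeks (-6.82 ± 0.76, adjusted p = 1.5e-05). It was among the brighter genes in every 4-week array and below the array median in every 8-week array. Kcne1l, a potassium channel subunit, fell from 171, 321 and 271 at 4 weeks to 13.7, 29.5 and 4.58 at 8 weeks (-3.45 ± 0.38). The organic anion transporter gene Slc22a29 fell from 636, 1152 and 1215 at 4 weeks to 127, 105 and 99.1 at 8 weeks (-3.10 ± 0.21). The rule that named both genes required no overlap of the ages. Inmt, an enzyme that methylates indoles and thioethers, rose to one of the brightest signals, with 1369, 392 and 895 at 4 weeks and 9923, 11293 and 12371 at 8 weeks (3.72 ± 0.37, adjusted p = 4.9e-06). Tc2n (1.57, 2.14 and 14.7 at 4 weeks and 111, 245 and 311 at 8 weeks; 3.65 ± 0.43), the peptide-amidating enzyme gene Pam (362, 75.2 and 66.7 at 4 weeks and 1662, 1839 and 1054 at 8 weeks; 3.37 ± 0.41) and the flavin monooxygenase gene Fmo5 (60.6, 148 and 40.8 at 4 weeks and 462, 762 and 977 at 8 weeks; 3.00 ± 0.35) rose as well. The 4-week arrays of Tc2n were all below the array median, and the gene was tested because of its ICR 8-week signals. Clec2d, a lectin that natural killer cell receptors bind, gave 70.4, 79.1 and 85.2 at 4 weeks and 679, 463 and 1012 at 8 weeks (2.88 ± 0.26). Apoh, a plasma apolipoprotein, gave 49.3, 28.5 and 35.5 at 4 weeks and 202, 495 and 665 at 8 weeks (3.03 ± 0.32), although its dimmer probe set did not pass (0.54). Of other genes known from liver, picked after their values were seen, Apob (3.31 ± 0.81) and Pzp (2.57 ± 0.33) rose, while Alb (0.10), Ttr (0.13) and Apoa2 (-0.29) did not pass.

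The age change was also compared with that of ICGN cortex, with a test of the difference itself. In ICGN 787 genes (6.35%) were called higher and 1584 (12.8%) lower at 8 weeks. Of the 2228 genes that rose in ICR 393 also rose in ICGN and 40 fell there, and of the 1328 that fell 625 also fell and 24 rose. The difference was called for 978 genes (7.9%), in 704 (5.68%) with the ICR change the higher and in 274 (2.21%) the lower. The balance moved with the scaling, from 72% higher with a common median to 63.8% when centred on the tested probe sets (841 and 478), 46% after quantile normalization (412 and 483) and 41.6% with a common trimmed mean (461 and 647). Under all 4 scalings 358 (2.89%) differed with the ICR change higher and 267 (2.16%) lower. Single arrays left out gave totals of 474 (ICGN 4-week array 3), 480 (ICGN 4-week array 2), 481 (ICR 4-week array 2), 561 (ICGN 8-week array 1), 598 (ICR 8-week array 3) and 618 (ICGN 4-week array 1), and within 1.5 times the full count for the other arrays.

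Mitosis genes fell in both strains, 30 of 31 in ICR (median -1.93) and 29 of 31 in ICGN (median -1.14), and the difference was called for 6, each with the larger fall in ICR and each under all 4 scalings. Mki67 fell by 3.15 in ICR and by 1.78 in ICGN, a difference of -1.38 (adjusted p = 0.00481). In the interstitial matrix list the difference was called for 17 of 33 genes, all with the lower change in ICR and all under all 4 scalings. Col1a1 stood at -2.20 in ICR and -0.43 in ICGN (difference -1.78, adjusted p = 0.00947), and Igf1 at -1.49 and 0.16 (difference -1.65, adjusted p = 0.00109). Of the male-biased genes 12 rose in ICR and 5 in ICGN, and the difference was called for 6 of 16 (4 under all 4 scalings), all with the higher change in ICR. Cyp2d9 rose by 4.11 and 0.98 (difference 3.13, adjusted p = 9.7e-04). Of the brush border and proximal enzymes the difference was called for 12 with the ICR change higher and 1 lower (6 and 1 under all 4 scalings), among them Cndp1 (1.94 and 0.10; adjusted p = 0.0103) and Hpd (1.47 and 0.15; adjusted p = 0.0277, lost under another scaling). Macrophage genes rose in 5 of 23 cases in ICR and 19 in ICGN, with 5 differences called, under all 4 scalings. Of the immunoglobulin genes Jchain differed (5.21 and 3.05; adjusted p = 0.0215), a call lost under another scaling, while the difference for Igha was not called (7.03 and 4.93; adjusted p = 0.108). Calb1 fell by 1.24 in ICR and by 1.16 in ICGN, and Serpina6 stood at -6.82 and -5.48, with neither difference called.

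**Figure D4:**
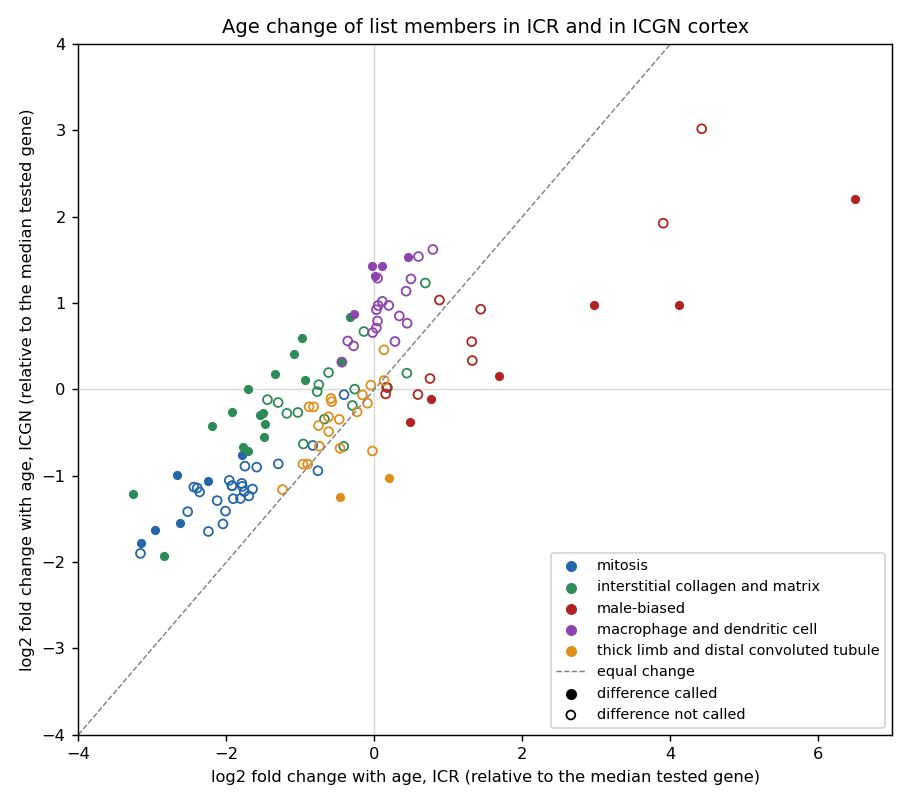
Each point is 1 tested gene of 5 lists, placed by its log2 fold change from 4 to 8 weeks in ICR (horizontal axis) and in ICGN (vertical axis), both relative to the median tested gene; filled points differ between the strains by the limma test of the difference, open points do not pass it, and the dashed line marks equal change. Mitosis genes lie at lower left, 29 of 31 called lower in ICGN too, and macrophage genes lie above the line, with 19 of 23 called higher in ICGN.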

How the data were processed

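Renal cortex RNA, labelled with biotin, was measured on the Affymetrix Mouse Genome 430 2.0 array according to the labels. The deposited values are the authors' linear signal intensity for each probe set, and the submitters' processing notes name MAS5, release not given in the sources used here. Of 45101 probe sets 64 are controls. The table's mean after trimming 2% at each end was 100.0 in each 4-week array and 500.0 in each 8-week array, so deposited levels of the ages are not on one scale. The 3 arrays a group limit the precision of every value.

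The median of every array was set to 40.4, and the analysis used R 4.3.3 with limma 3.58.1. An offset of 11.06, the 25th percentile of the rescaled table, was added before log2, which shrinks the fold change of dim genes. Probe sets above the array median in at least 3 of 12 arrays were tested. Of the probe sets 34958 have 1 gene symbol in the array annotation, 932 have several and 9211 have none, and 34754 of the first matched RefSeq (GRCm38.p6). Each gene was read from its brightest probe set, with suffix _x_at last, which gave 12385 genes. For 134 genes, different probe sets were called in opposite directions.

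A model with 4 group means (8 residual degrees of freedom, no replicate block, variance trend) gave the age change in each strain and their difference, adjusted by Benjamini-Hochberg over all genes. The tests are on fold changes before subtraction of the median gene. The model was tested on simulated data. Control probe sets were compared by an exact permutation test. Of 975 entries of 37 gene lists 873 were named by the annotation.

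Members and lists were chosen with earlier results of these data known. Genes named are the 15 highest and 15 lowest called genes with no overlap of the ages and a higher mean above the array median, up to 4 called members of each list, and the 8 highest and lowest of the called differences. Other list members were picked for their known role after their values were seen. The alternatives were other offsets, scalings, filters, probe sets and variance models, the replicate block, the ICR arrays alone, a fold threshold and leaving out each array. Promoter windows and their sequences are from RefSeq, build GRCm38.p6.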

Additional observations from a re-analysis of the deposited data

Results flagged for a closer look

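The age change of 16 genes, the 8 highest and 8 lowest differences, differed between the strains by the limma test of the difference (Benjamini-Hochberg over all genes), and values are the ICR change minus the ICGN change on the log2 scale, relative to the median gene.

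Among the genes with the higher change in ICR were the male-biased Cyp4a12a (4.28, adjusted p = 0.0020) and Cyp2d9 (3.13, adjusted p = 9.7e-04), Inmt (2.61), Tc2n (3.35), Pam (2.81) and Fmo5 (2.55). In each of these the ICR change was a called rise. Tc2n lay below the array median in all 6 ICGN arrays and in the ICR 4-week arrays, and it was tested because of its ICR 8-week signals. Hmox1, which encodes heme oxygenase 1, rose by 1.20 in ICR and fell by 2.09 in ICGN (difference 3.28, adjusted p = 0.0041), and its ICR call was lost without ICR 4-week array 2 or 8-week array 3. The organic anion transporter gene Slc22a7 stood at 0.35 in ICR, not called, and fell by 2.19 in ICGN (difference 2.53).

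The genes with the lower change in ICR included the female-biased Slc7a12 (-4.63, adjusted p = 9.7e-04) and Cyp4a14 (-2.75). The difference for Cyp4a14 was not called without ICGN 8-week array 1 (-2.28). Lcn2, encoding the injury marker lipocalin 2, rose by 2.38 in ICGN (difference -3.59, adjusted p = 0.0012). In ICR it lay below the array median in all 6 arrays, and its value of -1.21 there, a difference between dim signals, was not called at 4 times the offset (-0.52), in the 6 ICR arrays alone, or without 4-week array 2, 8-week array 2 or 8-week array 3. Opposite calls in the strains, lower in ICR and higher in ICGN, were made for Ptgds, encoding a prostaglandin D synthase (-2.69), Cd99 (-3.18) and the transcriptional repressor gene Bcl6 (-3.11). The ICR falls of Cd99 and Bcl6 were both lost with no filter, and each when some single arrays were left out. These were any 4-week array or 8-week array 1 for Cd99, and 4-week array 1 or 2 or 8-week array 2 or 3 for Bcl6. The fall of Bcl6 was also lost without a variance trend and in the 6 ICR arrays alone. The proton pump gene Atp12a fell by 2.15 in ICR and stood at 0.53 in ICGN, not called (difference -2.68). Ubd, a ubiquitin-like gene of inflammation, stood at 0.21 in ICR, not called, and rose by 2.91 in ICGN. The Ubd difference of -2.70 was not called without ICGN 4-week array 2 (-2.66). In all 6 ICR arrays Ubd lay below the array median, and it was tested because of its signal in ICGN.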

How the results depend on the processing

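Of the 3556 calls in the ICR age change, 701 reached a log2 size of 1 (249 higher, 452 lower). Lower calls, 1328 with a common median, numbered 2087 after quantile normalization, 2534 with a common trimmed mean and 805 with a filter at the 75th percentile, which tests fewer genes. Leaving out 1 array gave 2602 to 3276 calls in all, 1445 to 2147 higher and 1014 to 1182 lower, the fewest higher without 8-week array 3. Calls of a difference between the strains, 978 in all (704 with the higher and 274 with the lower change in ICR), numbered 496 (316 and 180) with the dimmest probe set of a gene, 412 and 483 after quantile normalization, 461 and 647 with a common trimmed mean, 478 with the lower change when centred on the tested probe sets, and 451 with the higher change without a variance trend. Leaving out 1 array gave 474 to 1061 in all, 298 to 871 higher and 146 to 305 lower. The 18S difference kept its sign in all scalings (log2 -0.99). Of the 150 genes named by the rule, 45 lost or turned a call in at least 1 setting, 37 of them in a setting other than leaving out an array. Signs turned for Plagl1 with no filter (0.88), and with the dimmest probe set for Trpm6 (0.25), Csf1r (-0.35), Xbp1 (-0.014), Rpl22 (0.15), Slc6a6 (-0.85) and Uty (-2.04). The cause was not tested. With the replicate block the calls numbered 3851, and 3127 and 3219 from the 6 ICR arrays alone without and with it. The deviations of same-numbered arrays from their group means correlated at r between -0.103 and 0.116 over 18 pairs. With 3 arrays a group this does not tell whether same-numbered arrays share a batch, which was not tested. Dim genes are limited by signal over background.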

Other observations

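Of the 978 genes whose age change differed between the strains, 489 rose in ICR with the higher change there, 188 fell in ICR with the lower change there, and 295 were not called in ICR. In the tubular injury list 4 of 20 genes were called higher and 5 lower in ICR, Lcn2 among the latter below the array median, against 11 and 2 in ICGN, and the difference was called for 8 with the lower and 1 with the higher change in ICR, each under all 4 scalings. In the antigen presentation list 10 of 17 genes rose in ICGN against 5 in ICR, with 1 difference called, that of H2-DMb2 (-2.63).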
